A study of Homo sapiens with 25 samples.

Results

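The nuclear and mitochondrially encoded genes of the respiratory chain were followed in Jurkat cells, an established leukaemia line of T-cell origin, under graded histidine restriction. The genes were chosen by name: the NDUFA, NDUFB, NDUFC, NDUFS and NDUFV genes, the UQCR genes, the ATP5F, ATP5M and ATP5P genes, and the MT- genes for ND, CO, CYB and ATP proteins. A gene was kept when its value reached 10 in 2 or more of the 25 libraries. The pattern matched 102 names, 22 names of pseudogene type were removed, and of the 80 left, ATP5MGL and UQCRB-AS1 fell below the minimum. The 78 genes kept, of 36755 in the table, were 65 nuclear and 13 mitochondrially encoded. MT-ATP6 and MT-ATP8, whose names end like the removed pseudogenes, were kept because the pattern asks for them. At 25% histidine and less, nuclear members were called in both directions; per comparison with 100% the members called were 19.2% to 35.9% of the 78, where 19.5% to 31% of all genes were called. UQCRH had the largest called fall of a nuclear member in each of these comparisons, and NDUFA5 the largest called rise in each but 12.5% on day 6, where ATP5F1E had it. Levels of the mitochondrially encoded mRNAs varied widely between replicate libraries and overlapped between most conditions, while their proportions among themselves shifted with the histidine level.

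All libraries came from the same line, grown with 100%, 50%, 25%, 12.5% or 0% histidine in the medium. On day 3 there were 2 libraries at 100% and 3 at each of 50%, 25%, 12.5% and 0%; on day 6 there were 3 at each of 100%, 50% and 25% and 2 at 12.5%. No genetic change or further agent is named in the labels. Nor do they say that replicates are separate cultures, and p-values here therefore reflect the variation among libraries, part of which may be technical. The comparisons ask how each histidine level differs from full medium on the same day and how the days differ.

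The respiratory chain passes electrons from NADH and succinate to oxygen through complexes I to IV and pumps protons across the inner mitochondrial membrane, and ATP synthase, complex V, uses the gradient to make ATP. Most subunits are encoded in the nucleus, whereas the mitochondrial genome encodes a small core set on long polycistronic transcripts that are cut into single mRNAs and then differ in stability. A working complex needs subunits from both genomes, and rapidly growing leukaemia cells use the chain for ATP and for aspartate and nucleotide synthesis.

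Of the 65 nuclear genes, 36 encode subunits of complex I (NADH dehydrogenase), 9 subunits of complex III (cytochrome bc1), including the UQCRH copy UQCRHL, and 17 subunits of ATP synthase. NDUFA4, named after complex I, encodes a subunit now assigned to complex IV. ATP5MF-PTCD1, a read-through transcript, and UQCRFS1-DT, a divergent transcript, are no subunit genes, which left 63 nuclear subunit genes. The mitochondrial members were 7 subunits of complex I, MT-CYB of complex III, 3 subunits of complex IV and 2 of ATP synthase. Neighbouring mitochondrial genes can overlap. MT-ATP8 and MT-ATP6 share the 46 bases at chrM:8527-8572 on the plus strand (GENCODE 29), printed here because reads in them can be counted for either gene, with the start codon of MT-ATP6 in capitals:
MT-ATP8 and MT-ATP6 overlap: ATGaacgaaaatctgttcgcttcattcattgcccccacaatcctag
MT-ND4L and MT-ND4 overlap likewise, MT-ND6 alone lies on the minus strand, and how the counting treated strand is not given in the sources used here.

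Upstream sequence was available for 52 of the 65 nuclear members in RefSeq (GRCh38.p14). In the 250 bases before the start, searched on both strands, the motif of nuclear respiratory factor 1, NRF1, a classic activator of respiratory chain genes, written as GCGCA, any base and GCGC, was found in 13 of 52 (25%), against 5.53% of 27305 genes. The core CCGGAAG of ETS factors such as GABP was found in 11 of 52 (21.2%), against 8.82%. Overlaps between matches were not removed, and a match is a description of letters, not a binding site. The RefSeq start lay within 500 bases of the GENCODE 29 start for 39 of the 52. For UQCRH it lies 67 and for ATP5PO 176 bases downstream of the GENCODE start, so that part of each window printed here, with the marked match, lies inside the GENCODE gene. The 250 bases before the RefSeq start of UQCRH, the called nuclear member that fell most in each comparison of 25% or less with 100%, lie on chr1:46303448-46303697 (plus strand), and the ETS match, read on the opposite strand, is in capitals. The 250 bases before the RefSeq start of ATP5PO, which rose at 25%, 12.5% and 0% on day 3, lie on chr21:33915805-33916054 (minus strand), with the NRF1 match, also read on the opposite strand, in capitals:
UQCRH: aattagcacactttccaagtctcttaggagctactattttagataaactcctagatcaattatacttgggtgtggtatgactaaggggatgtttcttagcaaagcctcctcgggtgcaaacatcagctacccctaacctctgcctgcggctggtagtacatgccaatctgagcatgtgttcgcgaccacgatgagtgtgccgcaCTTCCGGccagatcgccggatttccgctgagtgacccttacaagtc
ATP5PO: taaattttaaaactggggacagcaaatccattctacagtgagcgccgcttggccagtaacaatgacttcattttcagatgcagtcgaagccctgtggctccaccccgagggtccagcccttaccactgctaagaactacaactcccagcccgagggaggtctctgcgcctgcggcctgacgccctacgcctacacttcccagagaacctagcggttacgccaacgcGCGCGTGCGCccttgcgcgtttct
The motifs were also counted by call. At 12.5% against 100% on day 3, 7 of 17 promoters of members that rose held the NRF1 or the ETS motif. So did 1 of 5 that fell and 15 of 30 that did not pass the test. By motif, NRF1 was found in 2, 0 and 11 of these promoters and ETS in 5, 1 and 5. At 12.5% on day 6, 4 of 8 that rose, 3 of 6 that fell and 16 of 38 others held either motif.

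The deposited values are normalized counts, with a total per library of 18.4 to 21.4 megacounts; raw counts and so the true depth are not known. The T-lineage markers were as the label has it: 16 of 16 were measured, and their summed value was 77085 to 109150 per library, highest in the 3 libraries at 0% (104620 to 109150). 1 library, day 6 25% replicate 2, also held heart muscle transcripts, with a summed value of 63437 for the heart and striated muscle list against 326 to 810 in the other 24 libraries, although NPPA, PLN, MB and CKMT2 stayed under 10 in every library. In that library ATP5MC3 stood at 5470, 3.35 times the mean of the other 2 replicates, and ATP5MC1 at 1692, 2.99 times. In all, 6 nuclear members exceeded 1.5 times the other 2 replicates there, while the median ratio of the nuclear members was 0.988. All 13 mitochondrial mRNAs stood at 1.53 to 2.07 times the mean of the other 2 replicates, and 2 of them, MT-CO2 and MT-ND3, were higher than in any other library. Those other 2 replicates themselves differed by a median of 1.65 times for these mRNAs. Of the nuclear members, 8 were higher in the library with heart transcripts than in any other. Counts at 25% on day 6 are therefore given with and without it. The erythroid sum ranged from 199 to 5052 and the fibroblast and matrix sum from 2672 to 14127, and the epithelial, B-cell, myeloid and hepatocyte sums stayed under 809 in every library. The part of these transcripts in the results below was not tested.

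Mitochondrial mRNAs dominated the respiratory chain values. They made up 72.5% of the summed values of members in the lowest library (day 3, 12.5%, replicate 1) and 89.0% in the highest (day 6, 12.5%, replicate 2). Per kilobase of gene length, and as a mean over the 25 libraries, MT-CO1 stood highest at 135 kilocounts (a kilocount is a kilo of normalized counts, a megacount a mega), followed by MT-CO2 at 91.4 kilocounts, MT-ATP6 at 58.0 kilocounts and MT-CO3 at 56.9 kilocounts. MT-CO1, MT-CO2 and MT-CO3 encode the catalytic core of complex IV. The lowest were MT-ND5 at 17.2 kilocounts and MT-ND4L at 16.6 kilocounts, both complex I. Nuclear copies of mitochondrial genes, 67 names, amounted to 0.399% to 0.859% of the mitochondrial sum in any library.

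In kilocounts, the sum of the 13 mitochondrial mRNAs was 843 and 620 in the 2 libraries at 100% on day 3. It was 474, 677 and 635 kilocounts at 50%, 471, 696 and 419 kilocounts at 25%, 363, 421 and 547 kilocounts at 12.5%, and 839, 661 and 768 kilocounts at 0%. The 3 libraries at 12.5% lay below both at 100% and below all 3 at 0%, and the groups at 0% and 100% overlapped. On day 6 the sum was 428, 663 and 601 kilocounts at 100%, 729, 511 and 762 kilocounts at 50%, 587, 821 and 381 kilocounts at 25%, where the 821 is the library with heart transcripts, and 401 and 843 kilocounts at 12.5%. Day 6 groups all overlapped, and the 2 libraries at 12.5% spanned nearly the whole range of the study. In bulk RNA, fewer cells of a type and less RNA per cell cannot be told apart, nor can fewer mitochondria and fewer transcripts in each.

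The nuclear subunit genes varied far less. Their sum had a mean of 128 kilocounts (SD 11.2, n = 2) at 100% on day 3, 138 (SD 8.69, n = 3) at 50%, 124 (SD 5.73, n = 3) at 25%, 136 (SD 3.70, n = 3) at 12.5% and 132 (SD 3.70, n = 3) at 0%. On day 6 it was 107 (SD 2.69, n = 3) at 100%, 111 (SD 5.32, n = 3) at 50%, 109 (SD 9.41, n = 3) at 25% and 103 kilocounts (SD 1.71, n = 2) at 12.5%. For this sum, in the deposited values, every day 6 library lay below every day 3 library. As a percent of the library total the days overlapped. Day 6 50% replicate 2, at 0.599%, then lay above day 3 100% replicate 1, at 0.591%. The residual SD of log2 levels within groups had a median of 0.42 for the 13 mitochondrial genes (range 0.31 to 0.46) and of 0.13 for the nuclear members. Among 689 other genes at or above the level of the lowest mitochondrial member, the median was 0.08, and only 4 exceeded the mitochondrial median. The mitochondrial mRNAs also moved together: the library highest for MT-CO1 in its group was highest for 9 of the other 12 mRNAs in all 9 groups, and for MT-ATP8, MT-ND4L and MT-ND5 in 8 of 9.

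**Figure D1:**
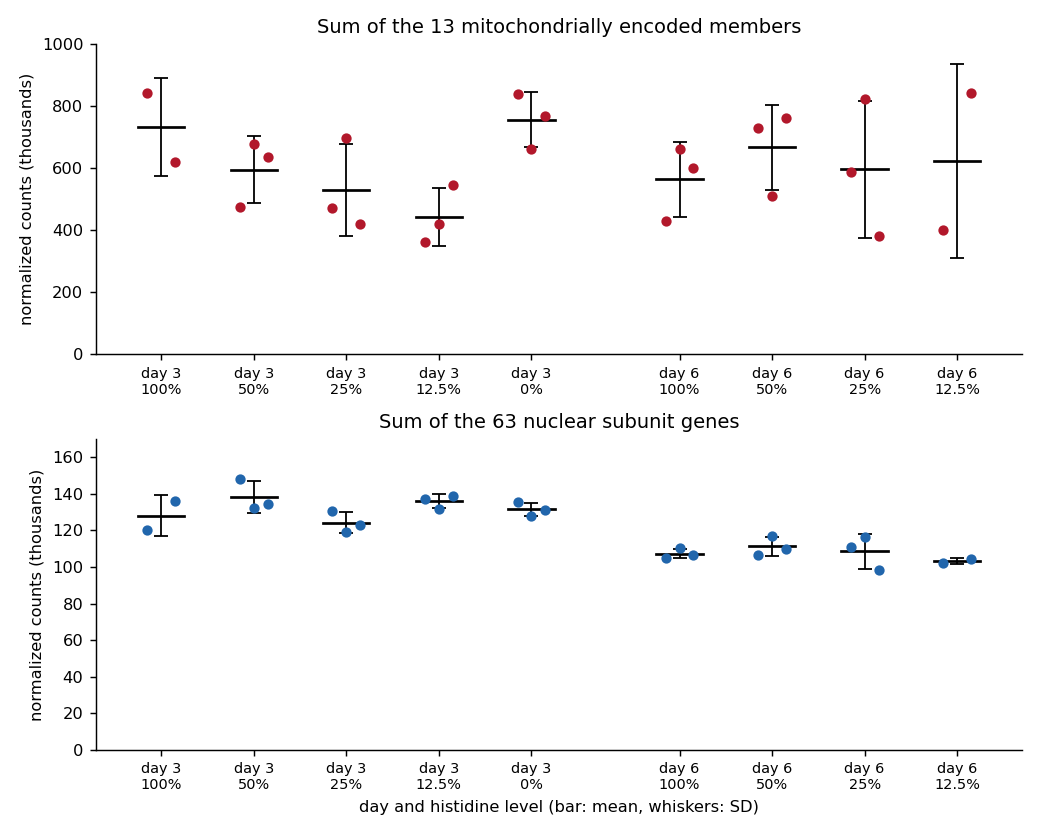
Summed normalized counts, in kilocounts, of the 13 mitochondrially encoded members (top) and the 63 nuclear subunit genes (bottom) in each library, by day and histidine level; points are libraries, bars means and whiskers SD. The mitochondrial sum overlaps between most groups, with the 12.5% group on day 3 lowest at 363 to 547 kilocounts. Every day 6 nuclear sum lies below every day 3 one in these values, but as a percent of the library total the days overlap.

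Each gene was tested with limma on log2(value + 1) over all 25 libraries, with Benjamini-Hochberg adjustment over 22994 genes, and called at an adjusted p under 0.05. Differences below are on this log2 scale, which understates changes of low genes, and are given with their standard error (SE). Within a day all histidine levels are set against the same 100% libraries, and so are both day 6 against day 3 and the day differences, so these comparisons are not independent.

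At 50% histidine no member passed the test on either day. At 50% against 100% limma called 0 of 78 members on day 3, where 0% of all genes were called, and 0 of 78 on day 6, where 0.00435% were. At an unadjusted p under 0.05 there were 4 members on day 3 (5.13%, and 4.68% of all genes) and 6 on day 6 (7.69%, and 4.78% of all genes). UQCRH, for instance, stood at 4169, 3403 and 3448 at 50% on day 3, against 3277 and 3620 at 100%.

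At 25% histidine on day 3, subunit genes of complex I and ATP synthase changed in both directions, and those of complex III that changed were lower. limma called 9 nuclear members higher and 12 lower, 21 of 78, where 19.5% of all genes were called, 9.81% higher and 9.72% lower; no mitochondrial mRNA passed (smallest adjusted p = 0.128). Complex I had 5 higher and 7 lower of 36, ATP synthase 4 higher and 2 lower of 17, and complex III 3 lower and none higher of 9. The median log2 difference of the nuclear members was -0.03, beside -0.0036 over all genes. With libraries scaled to equal totals the split was 16 higher and 10 lower, and with quantile normalization 11 and 11. Of all genes called, 50.24% were higher in the deposited values, 63.31% with equal totals and 52.99% with quantile normalization.

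UQCRH, the acidic hinge subunit of complex III that contacts cytochrome c, was the called nuclear member with the largest fall. The gene lies at chr1:46303631-46316776 on the plus strand (GENCODE 29, GRCh38). It stood at 1818, 1693 and 1692 at 25%, at 1948, 1844 and 1709 at 12.5% and at 2110, 1862 and 2003 at 0%. All 9 libraries lay below the 3277 and 3620 at 100% and below the 3 libraries at 50%. The difference from 100% was -0.99 at 25% (SE 0.09, adjusted p = 3.81e-09), -0.91 at 12.5% (adjusted p = 1.06e-08) and -0.79 at 0% (adjusted p = 6.52e-08). On day 6 the restricted libraries again lay below all at 100%, with 2588, 2813 and 2629 at 100%, 1602, 1408 and 1327 at 25%, and 1420 and 1479 at 12.5%. The day 6 differences were -0.89 (adjusted p = 3.51e-09) and -0.88 (adjusted p = 2.69e-08). The near-identical gene UQCRHL, with which reads could be shared, held a group mean of 0.639% to 2.20% of the UQCRH value and was called in none of these comparisons, with a difference of -1.10 at 12.5% on day 3 (adjusted p = 0.143).

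UQCRC2, a core subunit of the same complex at chr16:21952660-21983660, fell from 5795 and 6554 at 100% to 3547, 2949 and 3262 at 25% on day 3. It stood at 3786, 3922 and 3783 at 12.5% and at 4090, 3611 and 3874 at 0%. Each restricted group lay below both 100% libraries, and the differences were -0.93 (adjusted p = 1.4e-05), -0.69 (adjusted p = 0.000297) and -0.68 (adjusted p = 0.000263). UQCRC1, its partner core subunit, went the other way at 12.5%, by 0.20 (SE 0.07, adjusted p = 0.0348), and was lower at 0%, by -0.18 (adjusted p = 0.0494). On day 6 UQCRC2 stood at 4143, 4481 and 4318 at 100% and at 3204 and 3166 at 12.5% (-0.44, adjusted p = 0.0168). At 25% on day 6 it stood at 3305, 4851 and 2946, the middle value being the library with heart transcripts. There the difference was -0.25 (adjusted p = 0.137), and without that library -0.47 (adjusted p = 6.73e-05).

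NDUFA10 and NDUFS5, accessory subunits of complex I, were called lower in several groups. NDUFS5 lies at chr1:39026318-39034636. It stood at 3188 and 3782 at 100% on day 3, and fell to 2185, 2135 and 2062 at 25% (-0.71, SE 0.08, adjusted p = 5.05e-07) and 2593, 2583 and 2727 at 12.5% (-0.40, adjusted p = 0.000626). At 0% it was back among the 100% values, at 3448, 3302 and 3402, and the rise from 12.5% to 0% was 0.36 (SE 0.08, adjusted p = 0.000725). NDUFA10 stood at 2067 and 2262 at 100% and at 1348 to 1637 in the 9 libraries at 25% or less, with differences of -0.56, -0.59 and -0.42 at 25%, 12.5% and 0%. Also lower at 25% were NDUFB6 of the membrane arm, by -0.60 (SE 0.13, adjusted p = 0.00128), and NDUFV3, a small accessory subunit of the module that binds NADH, by -0.53 (adjusted p = 0.0161).

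NDUFA5, an accessory subunit of the complex I arm that extends into the matrix, was the member with the largest rise at 25%, 12.5% and 0% on day 3. Its gene lies at chr7:123536997-123558255 on the minus strand. It stood at 1272 and 1225 at 100%, 2005, 2046 and 1721 at 25%, 2172, 1916 and 2126 at 12.5%, and 2302, 2201 and 2410 at 0%. Each of the 9 libraries lay above both at 100%, and the 3 at 0% were the highest of all. The differences were 0.62 (SE 0.11, adjusted p = 0.000132), 0.73 (adjusted p = 1.03e-05) and 0.88 (adjusted p = 3.88e-07). On day 6 it stood at 1088, 1356 and 1192 at 100%, 1971, 1770 and 1615 at 25% and 1743 and 1773 at 12.5%, again without overlap of the 100% values, with differences of 0.56 (adjusted p = 0.000116) and 0.54 (adjusted p = 0.000526). After NDUFA5, the largest rises at 25% on day 3 were those of NDUFB9 (0.55, adjusted p = 0.000109), NDUFS8 (0.48, adjusted p = 0.000989), NDUFS7 (0.44, adjusted p = 0.00168) and NDUFB10 (0.44, adjusted p = 0.00861) of complex I and ATP5PB, of the stator stalk of ATP synthase (0.37, adjusted p = 0.0107).

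**Figure D2:**
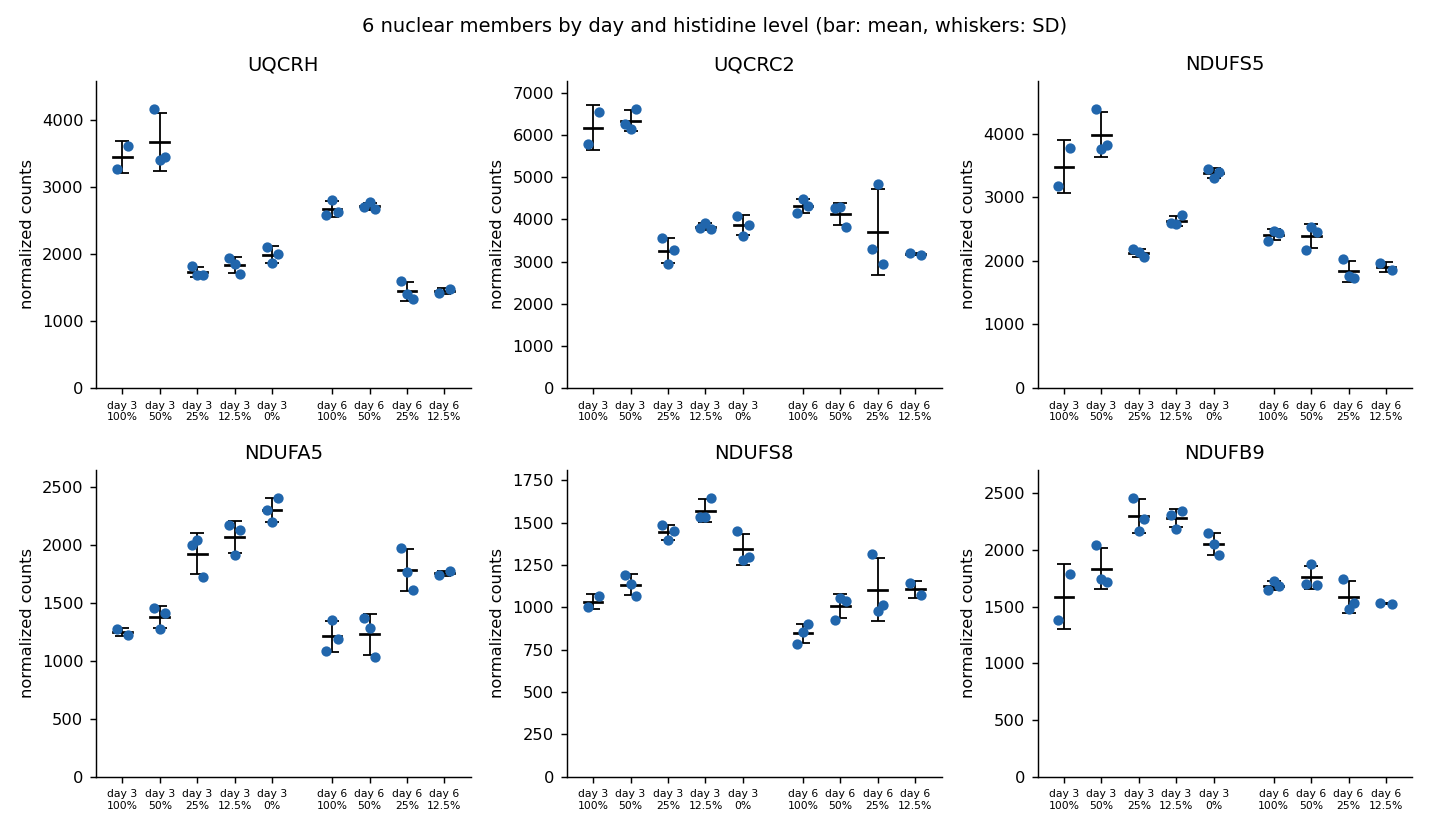
Normalized counts of 6 nuclear members in each library by day and histidine level; points are libraries, bars means and whiskers SD. UQCRH, UQCRC2 and NDUFS5 are lower at 25% than at 100% on day 3 and NDUFA5, NDUFS8 and NDUFB9 higher, NDUFS5 returns to 3302 to 3448 at 0%, and NDUFB9 on day 6 stands at 1648 to 1730 at 100% and at 1527 and 1529 at 12.5%.

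At 12.5% on day 3 the balance was toward higher values. limma called 21 nuclear members higher and 6 lower, and MT-ND5 lower, 28 of 78, where 26.2% of all genes were called, 14.2% higher and 12% lower. Complex I had 13 higher and 3 lower of 36, ATP synthase 7 higher and 1 lower of 17, and complex III 1 higher and 2 lower of 9. The median of the nuclear members was 0.18, beside -0.04 over all genes. With quantile normalization the split was 17 higher and 10 lower, and with libraries scaled to totals without mitochondrial genes 20 and 11. Of all genes called, 54.12% were higher in the deposited values, and 52.95% and 49.1% in these scalings. Without day 3 100% replicate 1 the count was 14.

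After NDUFA5, the largest rises at 12.5% were of NDUFS8, NDUFS7 and NDUFB9 of complex I and of ATP5PO and ATP5F1D of ATP synthase. NDUFS8, an iron-sulfur subunit of the complex I core, stood at 1004 and 1065 at 100% and at 1532, 1532 and 1648 at 12.5% (0.60, SE 0.10, adjusted p = 4.95e-05). NDUFS7, the subunit that carries the last iron-sulfur cluster before ubiquinone, was higher by 0.54 (SE 0.10) and NDUFB9, an accessory subunit of the membrane arm, by 0.53 (SE 0.10, adjusted p = 9.39e-05). ATP5PO, the oligomycin sensitivity subunit that joins the head to the stator stalk, stood at 2305 and 2632 at 100% and 3952, 3401 and 3774 at 12.5% (0.59, SE 0.10, adjusted p = 3.13e-05). ATP5F1D of the central stalk was higher by 0.52 (SE 0.16, adjusted p = 0.0194). Within the catalytic head of ATP synthase, ATP5F1A, the alpha subunit, fell by 0.22 (SE 0.08, adjusted p = 0.0442) and ATP5F1B, the beta subunit, rose by 0.21 (SE 0.05, adjusted p = 0.00493); the latter was singled out after its value had been seen. NDUFV3 was lower by -0.56 (SE 0.16, adjusted p = 0.00853).

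Without any histidine in the medium, 17 nuclear members were called higher and 7 lower against 100%, 24 of 78, where 31% of all genes were called, 14.8% higher and 16.1% lower. Complex I had 9 higher and 2 lower of 36, ATP synthase 6 higher and 1 lower of 17 and complex III 2 higher and 3 lower of 9, and the nuclear median was 0.08 beside -0.02 over all genes. ATP5F1E, the epsilon subunit of the central stalk, rose most after NDUFA5. It stood at 1144 and 1488 at 100%, 1740, 1683 and 1890 at 12.5% and 2363, 2214 and 2171 at 0%, a difference of 0.78 at 0% (SE 0.14, adjusted p = 5.91e-05). NDUFB2 and NDUFB7 of the complex I membrane arm rose by 0.50 (SE 0.11, adjusted p = 0.000519) and 0.42 (SE 0.12, adjusted p = 0.0112), and UQCR11 of complex III by 0.45 (SE 0.12, adjusted p = 0.00366). NDUFC2 was lower by -0.34 (SE 0.11, adjusted p = 0.0247), ATP5F1A by -0.26 (SE 0.08, adjusted p = 0.0139), and the read-through ATP5MF-PTCD1 by -0.54 (SE 0.16, adjusted p = 0.00936). Without day 3 100% replicate 1 the count was 10, and with the number in the labels' library names, modulo 8, as a term in the fit it was 9. The fit with that term called 4725 of all 22994 genes.

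From 12.5% to 0% on day 3, 2 nuclear members rose and 5 fell, and 2 mitochondrial mRNAs rose, 9 of 78, where 21% of all genes were called, 8.5% higher and 12.5% lower. ATP5F1E and NDUFS5 rose. ATP5F1D fell by 0.43, NDUFA6 by 0.40, UQCRC1 by 0.38 (adjusted p = 4.26e-05), NDUFB5 by 0.37 and NDUFS1, the largest iron-sulfur subunit of complex I, by 0.33. Without day 3 12.5% replicate 1 the count was 5.

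On day 6 nuclear members were again called in both directions. At 25%, limma called 9 nuclear members higher and 6 lower, 15 of 78, where 20.2% of all genes were called, 11% higher and 9.24% lower. At 12.5% it called 8 higher and 8 lower, 16 of 78, where 21.9% were called, 10.8% higher and 11.1% lower. With libraries scaled to equal totals the splits were 6 higher and 8 lower at 25%, and 6 and 9 at 12.5%, and with quantile normalization 7 and 11 at both. Of all genes called at 25%, 54.27% were higher in the deposited values, 51.04% with equal totals and 49.43% with quantile normalization. At 12.5% these were 49.29%, 46.04% and 50.14%. Without the library with heart transcripts the split at 25% was 7 higher and 9 lower. At 12.5% complex I had 5 higher and 4 lower of 36, complex III 3 lower of 9 and ATP synthase 3 higher and 1 lower of 17. Leaving out either 12.5% library lowered the count at 12.5% to 8. At 25% NDUFV2, an iron-sulfur subunit of the NADH-binding module, was called higher by 0.45 (SE 0.16, adjusted p = 0.0469), and without the library with heart transcripts the difference was 0.15 (adjusted p = 0.427).

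NDUFA11, a membrane-arm subunit of complex I at chr19:5891276-5904006, was called lower at both restricted levels on day 6. It stood at 1143, 1165 and 1200 at 100%, 849, 617 and 726 at 25% and 810 and 692 at 12.5%, with no overlap, and differed by -0.69 (SE 0.11, adjusted p = 3.31e-05) and -0.64 (SE 0.12, adjusted p = 0.000272). The 617 is the library with heart transcripts. On day 3 NDUFA11 stood at 1240 and 1516 at 100% and at 1396, 1378 and 1352 at 12.5%, a difference of 0.0039 (adjusted p = 0.99). NDUFC2 was lower by -0.63 (SE 0.11) at 12.5% on day 6, and UQCRQ, a small subunit of complex III, by -0.44 (SE 0.13, adjusted p = 0.0166). Higher at 12.5% on day 6 were ATP5F1E by 0.56 (SE 0.14, adjusted p = 0.00356), ATP5ME by 0.41 (SE 0.11, adjusted p = 0.00589), NDUFB3 by 0.40 (SE 0.14, adjusted p = 0.048) and NDUFS8 by 0.39 (SE 0.10, adjusted p = 0.0059). NDUFS1 was higher at 25% on day 6, by 0.36 (SE 0.09, adjusted p = 0.004), and NDUFS4 by 0.37 (SE 0.11, adjusted p = 0.0177). Without the library with heart transcripts these were 0.21 (adjusted p = 0.0498) and 0.35 (adjusted p = 0.0584).

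At 12.5%, 5 members were called higher on both days, ATP5F1E, ATP5PF, NDUFA1, NDUFA5 and NDUFS8, which is 23.8% of the 21 on day 3 and 62.5% of the 8 on day 6. Another 5 were called lower on both days, ATP5F1A, NDUFA10, NDUFS5, UQCRC2 and UQCRH, 71.4% of the 7 and 62.5% of the 8. At 25%, ATP5PD, NDUFA5 and NDUFS8 were higher on both days, 33.3% of 9 and 33.3% of 9. NDUFA10, NDUFC2, NDUFS5 and UQCRH were lower, 33.3% of 12 and 66.7% of 6. These counts at 25% are given only with the library with heart transcripts. UQCRC2, called lower at 25% on day 3, passed on day 6 only without that library. Over all genes the called rises shared by both days were 52.7% and 69.2% of each day's at 12.5% and 54.2% and 48.5% at 25%, and the shared falls 55.8% and 60.4%, and 47.7% and 50.2%. The test of the difference between the days' effects called 3 members at 12.5% (3.85%), where 3.64% of all genes were called, 1.28% higher and 2.36% lower. At 25% it called 2 (2.56%), where 4.72% were called, 2.71% higher and 2.01% lower. NDUFB9 stood at 1383 and 1789 at 100% on day 3 and at 2309, 2189 and 2341 at 12.5%, without overlap. On day 6 it stood at 1648, 1730 and 1678 at 100% and at 1529 and 1527 at 12.5%, a difference of -0.14 (adjusted p = 0.347). For NDUFB9 the effect of 12.5% on day 6 minus that on day 3 was -0.68 (SE 0.13, adjusted p = 0.00398), for NDUFA11 -0.65 (adjusted p = 0.034) and for ATP5PO -0.49 (adjusted p = 0.0418). At 25% the effect on NDUFB9 differed by -0.64 (adjusted p = 0.00267) and that on UQCRC2 by 0.67 (adjusted p = 0.0258), the latter 0.46 (adjusted p = 0.0123) without the library with heart transcripts. Single libraries moved these counts. At 12.5% the count was 0 without day 3 100% replicate 1 and 7 without replicate 3. It was 1 without day 3 12.5% replicate 1 or 3, day 6 100% replicate 2 or day 6 12.5% replicate 2. At 25% it was 4 without day 3 100% replicate 1 and 5 without day 6 25% replicate 1. It was 1 without day 3 100% replicate 3, day 3 25% replicate 3, or day 6 100% replicate 1 or 3.

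**Figure D3:**
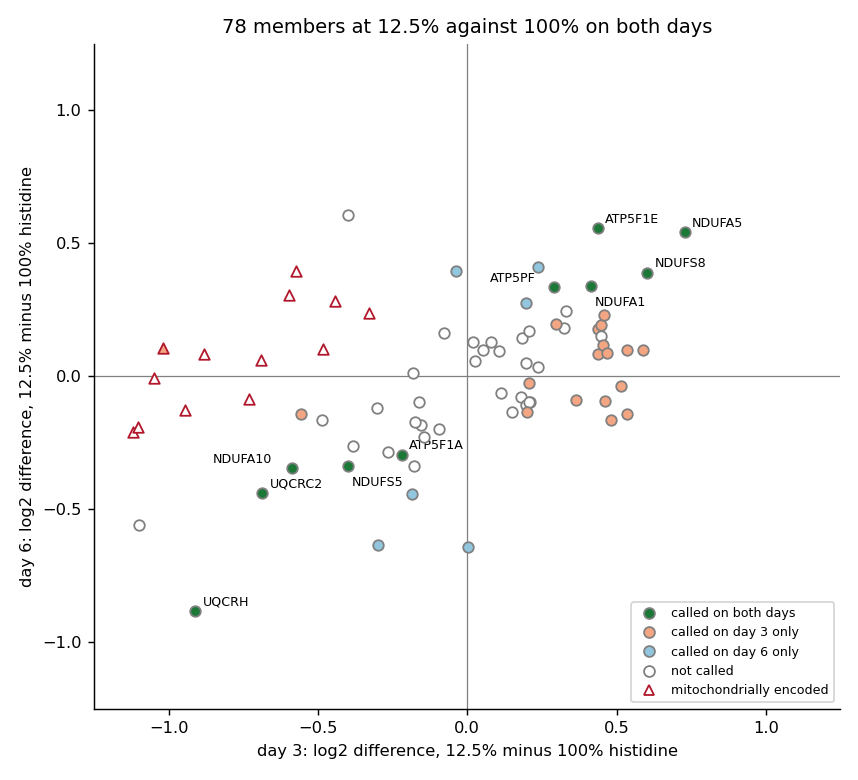
Log2 difference of 12.5% against 100% histidine on day 3 (horizontal) and day 6 (vertical) for the 78 members; circles are nuclear genes, triangles mitochondrially encoded ones, and colour shows on which day limma called the gene. UQCRH lies lowest among the called genes on day 6 and among the called nuclear genes on day 3, NDUFA5 farthest right, and the mitochondrial mRNAs are all below 0 on day 3 and lie from -0.21 to 0.40 on day 6.

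Levels of single mitochondrial mRNAs rarely passed the test. At 12.5% against 100% on day 3 all 13 differences were below 0, from -1.12 (MT-ATP6, adjusted p = 0.0537) to -0.33 (MT-ND3, adjusted p = 0.453), and MT-ND5 alone passed at -1.02 (SE 0.36, adjusted p = 0.0436). From 12.5% to 0% all 13 were above 0, and MT-ND2 (1.11, SE 0.35, adjusted p = 0.033) and MT-ND5 (1.09, SE 0.32, adjusted p = 0.0203) rose. At 0% against 100% they ranged from -0.35 to 0.56 and none passed, with a smallest adjusted p of 0.331. On day 6 none passed at 25% or 12.5%. The SE of a mitochondrial difference had a median of 0.38 at 0% against 100%, against 0.11 for nuclear members, so that differences as small as many of those called in nuclear members were not detectable for these mRNAs.

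Since the mitochondrial mRNAs moved together between libraries, each was also expressed as its share of their sum in its library, a measure that no scaling of libraries changes. A share can rise because others fall, and this measure was added after the values had been seen. The residual SD of log2 shares had a median of 0.07, against 0.32 for the log2 levels of all tested genes. In this fit only the 13 mitochondrial mRNAs were shares, and all other genes stayed as levels. The percentages of all genes called, given below, are therefore for another and more variable measure and are no like-for-like background. At 50% no share passed limma on either day. On day 3 the shares called were 2 higher and 5 lower of 13 at 25% (19.6% of all genes called in that fit), 4 and 5 at 12.5% (26.2%) and 3 and 4 at 0% (31%). On day 6 they were 2 higher and 5 lower at 25% (20.2%) and 3 and 3 at 12.5% (22%); without the library with heart transcripts 0 higher and 5 lower were called at 25%, MT-CYB at 0.11 (adjusted p = 0.107) and MT-ND1 at 0.11 (adjusted p = 0.112) no longer passing. Single libraries moved these counts: at 25% on day 3, 4 shares were called without day 3 100% replicate 3, and at 12.5%, 5 without day 3 100% replicate 1. On day 6, 4 were called at 25% without day 6 100% replicate 2 or 3 or day 6 25% replicate 1, and 3 at 12.5% without day 6 12.5% replicate 1.

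MT-CYB, the only mitochondrially encoded subunit of complex III, had a higher share at 25%, 12.5% and 0% than at 100% on day 3, and the higher the lower the histidine level. It lies at chrM:14747-15887 on the plus strand. Its share of the mitochondrial sum was 7.83% (SD 0.064, n = 2) at 100%, 7.62% (SD 0.208, n = 3) at 50%, 8.72% (SD 0.278) at 25%, 9.52% (SD 0.194) at 12.5% and 11.1% (SD 0.313) at 0%. The lowest library at 0%, with 10.8%, lay above the highest at 12.5%, with 9.74%. The log2 difference at 0% was 0.50 (SE 0.05, adjusted p = 1.84e-09). On day 6 the share rose from 8.55% (SD 0.179, n = 3) at 100% to 9.93% (SD 0.608, n = 2) at 12.5%, by 0.21 (adjusted p = 0.000834).

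MT-ND2 and MT-ND1, complex I subunits of the membrane arm, gained as well at 0% on day 3, but not at 25%. There MT-ND2 had 5.39%, a limma difference of -0.09 (adjusted p = 0.341), and MT-ND1 differed by -0.0062 (adjusted p = 0.959). At 12.5% on day 3 MT-ND1 was higher by 0.15 (adjusted p = 0.0197), and MT-ND2, at 0.13, did not pass (adjusted p = 0.129). MT-ND2 rose from 5.75% (SD 0.063, n = 2) at 100% to 7.90% (SD 0.147, n = 3) at 0%, by 0.46 (SE 0.06, adjusted p = 1.06e-06), and MT-ND1 from 5.04% (SD 0.012) to 6.01% (SD 0.036), by 0.25 (SE 0.05, adjusted p = 0.000149). On day 6 at 12.5% both were higher, MT-ND1 by 0.33 (adjusted p = 9.86e-06) and MT-ND2 by 0.24 (adjusted p = 0.00449). At 12.5% on day 3 MT-CO3 (0.24, adjusted p = 0.00192) and MT-ND3 (0.40, adjusted p = 0.00962) had gained too, and at 25% MT-CO1 (0.15, adjusted p = 0.0207). At 0% none of them passed limma, with MT-CO3 at 0.12, MT-ND3 at 0.19 and MT-CO1 at -0.10. From 12.5% to 0% the shares called were 4 higher and 2 lower (21% of all genes called in that fit). The lower were MT-CO1 (-0.14, adjusted p = 0.0152) and MT-CO2 (-0.19, adjusted p = 0.0085).

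The mRNAs that lost share were those of both overlapping pairs, MT-ND5 and others. MT-ATP6, the proton channel subunit of ATP synthase, fell from 7.55% (SD 0.294, n = 2) at 100% to 6.23% (SD 0.318, n = 3) at 25%, 5.76% (SD 0.211) at 12.5% and 5.71% (SD 0.085) at 0%. Its log2 differences were -0.28, -0.39 and -0.40 (SE 0.06, adjusted p = 0.00151, 1.99e-05 and 9.55e-06). MT-ATP8, on the same mRNA, differed by -0.33, -0.38 and -0.40. MT-ND4 differed by -0.21, -0.22 and -0.19, and MT-ND4L by -0.32 at 12.5% (adjusted p = 0.00334). MT-CO2 was lower at 0% by -0.19 (adjusted p = 0.011). On day 6 at 12.5% MT-ATP6 (-0.28), MT-ATP8 (-0.26) and MT-ND4 (-0.20) were lower. MTATP6P1, a nuclear copy nearly identical to MT-ATP6, stood at group means of 6.39% to 6.74% of MT-ATP6 over the 9 groups.

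The share of MT-ND5 did not follow the histidine level stepwise. Its share was 5.83% (SD 0.255, n = 2) at 100%, 4.61% (SD 0.109, n = 3) at 25%, 4.76% (SD 0.258) at 12.5% and 5.88% (SD 0.114) at 0% on day 3. It was lower at 25% (-0.34, adjusted p = 5.57e-05) and 12.5% (-0.29, adjusted p = 0.000199) and rose from 12.5% to 0% by 0.31 (adjusted p = 3.89e-05). MT-ND6, from the opposite strand, was lower at 25% by -0.29 (adjusted p = 0.00125) and rose from 12.5% to 0% by 0.19 (adjusted p = 0.0168). On day 6 the share of MT-ND5 was 5.19% (SD 0.022, n = 3) at 100%, 4.43% (SD 0.306, n = 3) at 25% and 5.33% (SD 0.119, n = 2) at 12.5%. It was lower at 25% there too (-0.23, adjusted p = 0.00128), and the effect of 25% differed between the days by 0.11 (SE 0.07, adjusted p = 0.505). The effect of 12.5% differed between the days by 0.33 (SE 0.08, adjusted p = 0.0153).

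**Figure D4:**
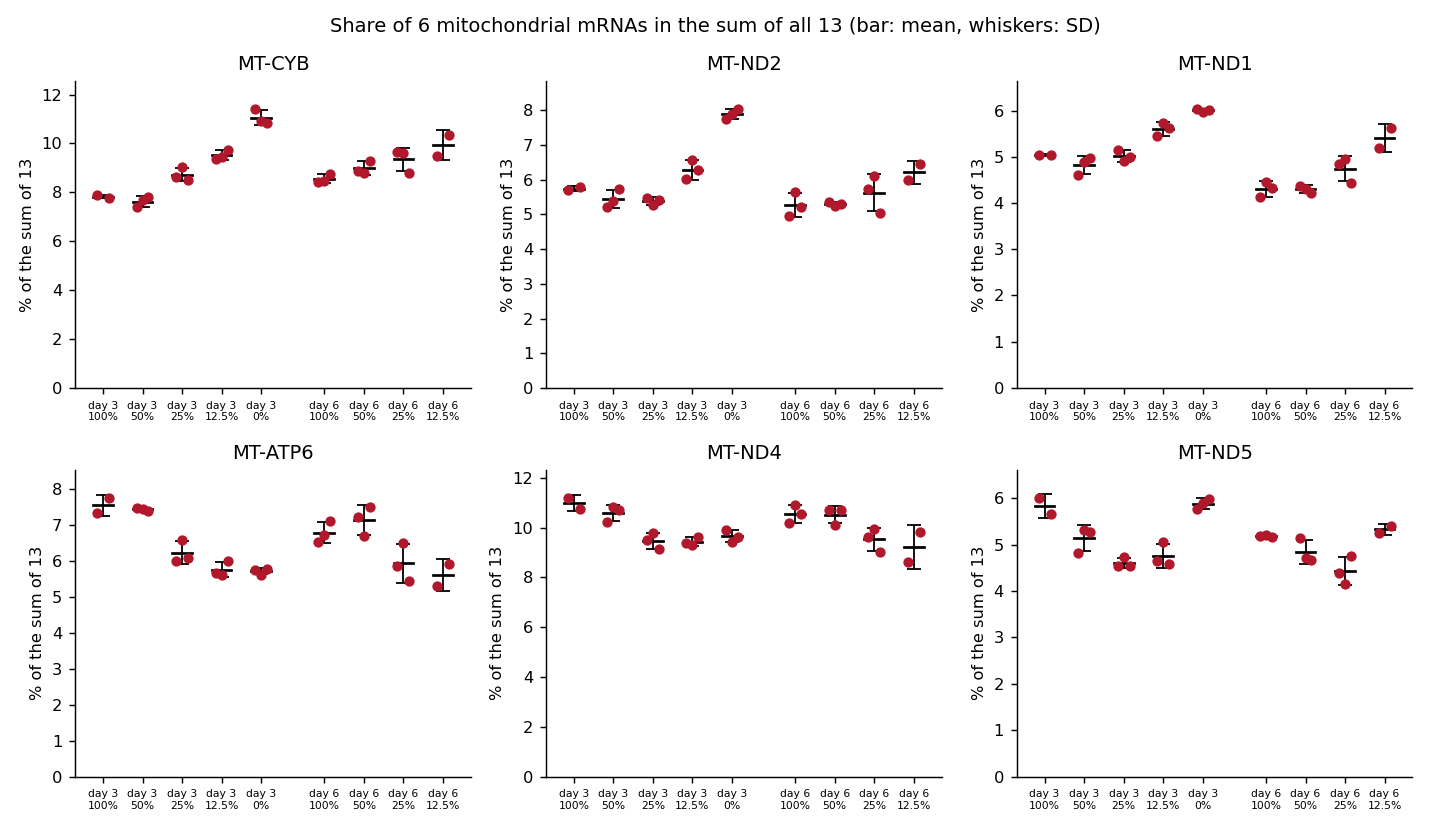
Share, in percent, of 6 mitochondrial mRNAs in the sum of all 13, by library, day and histidine level; points are libraries, bars means and whiskers SD. MT-CYB climbs from 7.83% at 100% to 11.1% at 0% on day 3 and MT-ATP6 falls from 7.55% to 5.71%, while MT-ND5 dips at 25% and 12.5% and stands at 5.88% at 0%.

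The ratio of MT-CYB to MT-ATP6 within a library puts both trends in 1 value; it was chosen after the shares had been seen and is given with no test. On day 3 it was 1.07 and 1.00 at 100%, 0.990, 1.03 and 1.05 at 50%, 1.44, 1.37 and 1.40 at 25%, 1.66, 1.68 and 1.62 at 12.5%, and 1.99, 1.95 and 1.88 at 0%. The groups at 100% and 50% overlapped, and every lower level lay wholly above the one before it. On day 6 it was 1.29, 1.26 and 1.23 at 100%, 1.23, 1.31 and 1.24 at 50%, 1.65, 1.48 and 1.62 at 25%, and 1.80 and 1.75 at 12.5%. The library with heart transcripts had the 1.48. At 25% on day 6 the level of a mitochondrial mRNA differed between the highest and lowest replicate by a median of 2.38 times, and at 12.5% by 2.26 times. Without the library with heart transcripts the median at 25% was 1.65 times.

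Nuclear members were lower on day 6 than on day 3. At 12.5%, 44 nuclear members were lower on day 6 than on day 3 and none higher, where 13.8% of all genes were called, 3.56% higher and 10.2% lower. Complex I contributed 25 of 36, complex III 6 of 9 and ATP synthase 12 of 17, and the nuclear median was -0.41 beside 0.03 over all genes. At 25%, 27 were lower and none higher (11.8% of all genes called, 5.04% higher and 6.75% lower), with a nuclear median of -0.23, and at 100%, 17 were lower and none higher (8.66% called, 2.93% higher and 5.73% lower), also with a median of -0.23. The mitochondrial medians were -0.44 at 100%, 0.13 at 25% and 0.38 at 12.5%, and no mitochondrial mRNA passed. The largest fall at 12.5% was that of NDUFA11 (-0.88, SE 0.12, adjusted p = 2.77e-05), followed by ATP5F1D (-0.78), NDUFA7 (-0.76) and UQCRQ (-0.75). NDUFA11 also fell most at 25% (-0.75), with UQCRQ (-0.59) and NDUFS7 (-0.58), and at 100% NDUFB3 (-0.65), NDUFA2 (-0.62) and ATP5MF (-0.53) fell most among those called.

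Scaling bears on this comparison: the total value was 20.3 and 21.0 megacounts at 100% on day 3 and 18.7 to 19.5 megacounts on day 6. With libraries scaled to equal totals the median of all genes moved from 0.02 to 0.13 at 100% and from 0.03 to 0.14 at 12.5%, while the share of called genes that were higher went from 33.8% to 69.95% and from 25.79% to 51.67%. The counts of members became 10 lower at 100%, 24 lower and 1 higher at 25% and 33 lower at 12.5%. Of all 22994 genes, 1977, 2772 and 2816 were then called at these levels. Single libraries mattered too: at 100% the count was 2 without day 3 100% replicate 3 and 11 without day 6 100% replicate 1, at 25% it was 19 without the library with heart transcripts, 11 without day 3 25% replicate 1 and 13 without day 6 25% replicate 3, and at 12.5% it was 23 and 29 without day 6 12.5% replicates 1 and 2.

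**Figure D5:**
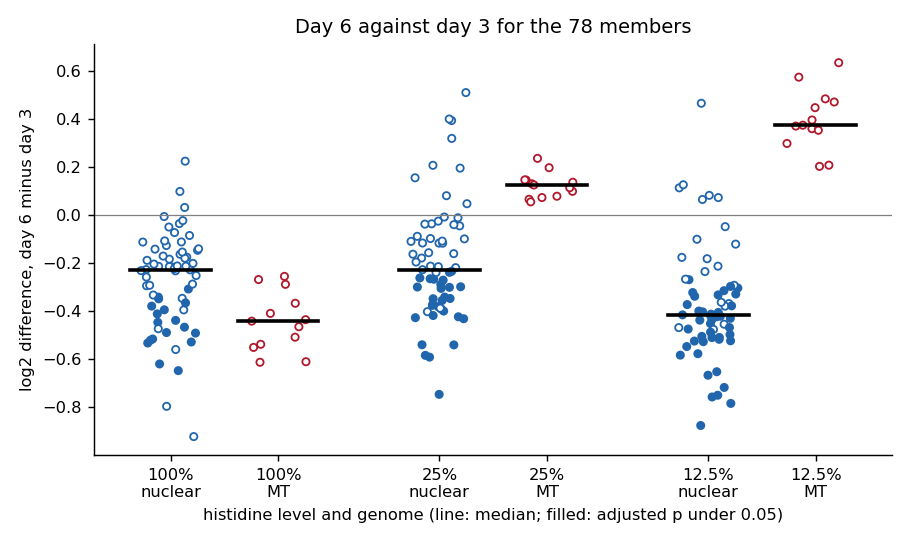
Log2 difference of day 6 against day 3 at 100%, 25% and 12.5% histidine for the 65 nuclear and 13 mitochondrially encoded members; each point is a gene, filled where limma's adjusted p is under 0.05, and lines are medians. The nuclear medians are -0.23, -0.23 and -0.41, and the mitochondrial points, none of them filled, have medians of -0.44, 0.13 and 0.38.

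Other genes of the pathway were read at 0% on day 3 (31% of all genes called) and at 12.5% on day 6 (21.9%). Day and histidine level both differ between these readings, so a difference between them cannot be assigned to either. Complex II, which oxidizes succinate, had 1 of 4 subunits lower at each: SDHA, its flavoprotein, by -0.76 (adjusted p = 7.07e-05) and -0.44 (adjusted p = 0.0175). Of the 13 nuclear complex IV subunits tested, 2 were higher and 1 lower at 0% and 1 lower on day 6; COX7C was lower in both (-0.33 and -0.59), and COX4I1 (0.29) and COX7B (0.57) were higher at 0%. Of 9 further chain members, 2 were higher and 1 lower in both. CYCS, cytochrome c, rose by 0.44 and 0.51, HIGD1A, which binds complex IV, rose by 0.45 and 0.38, and CYC1, cytochrome c1 of complex III, differed by -0.44 (adjusted p = 0.000966) and -0.92 (adjusted p = 1.13e-07).

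Assembly factors of complex I numbered 3 higher and 4 lower of 19 at 0% and 1 higher and 4 lower on day 6, with TMEM126A at 0.68 and 0.60 and ACAD9 at -0.64 and -0.44. Those of complexes III, IV and V numbered 6 higher and 4 lower of 30 in both comparisons, with SURF1, a complex IV factor, at 0.74 (adjusted p = 1.5e-07) and 0.34. Genes for mitochondrial transcription and DNA maintenance had 3 higher and 3 lower of 18 at 0% and 2 higher and 1 lower on day 6. RNASEH1, which removes RNA from RNA-DNA hybrids, rose in both (0.66 and 0.44) and TFB1M, the 12S rRNA methyltransferase, was lower (-0.65 and -0.55). Mitochondrial RNA processing, stability and decay had 5 higher and 3 lower of 21 at 0% and 2 higher and 4 lower on day 6. FASTK, whose mitochondrial form is required for the MT-ND6 mRNA, rose by 1.15 at 0% (adjusted p = 8.55e-06) and differed by -0.06 on day 6 (adjusted p = 0.877). REXO2, a mitochondrial exonuclease for short RNAs, rose by 0.60 at 0%. SUPV3L1, the helicase of the RNA degradosome, was lower in both (-0.37 and -0.55). PNPT1, also on this list, went the other way at 0%, higher by 1.32 (SE 0.31, adjusted p = 0.00218). SLIRP, which binds and stabilizes mitochondrial mRNAs, rose in both (0.36 and 0.52).

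Translation factors had 0 higher and 3 lower of 14 at 0% and 0 higher and 4 lower on day 6, with OXA1L, the inner membrane insertase, at -0.64 and -0.58. Among 12 nuclear regulators of respiratory chain genes 1 was higher and 5 lower at 0% and 1 higher and 3 lower on day 6. MYC fell by 1.53 (adjusted p = 5.59e-14) and 1.69 (adjusted p = 2.65e-14), PPARGC1B by 1.06 and 0.84, and GABPB1, a subunit of the ETS factor GABP, by 0.56 at 0%. NRF1 differed by -0.05 at 0% (adjusted p = 0.775) and rose by 0.57 on day 6 (adjusted p = 0.000139). Of 18 mitochondrial stress genes 5 were higher and 4 lower at 0% and 2 higher and 3 lower on day 6. HSPA9 rose at 0% by 0.70 (SE 0.06, adjusted p = 8.6e-10). ATF5 rose by 1.12 and 0.20 and the chaperone TRAP1 fell by 0.59 and 1.01. DDIT3 differed in sign, 0.73 at 0% on day 3 and -1.27 at 12.5% on day 6. Of the mitochondrial rRNAs, MT-RNR1 was called lower on day 3 at 25% (-0.74, adjusted p = 0.0182) and 12.5% (-0.95, adjusted p = 0.00227) and stood at -0.49 at 0% (adjusted p = 0.0913), and MT-RNR2 passed at none of these levels (-0.44, -0.78 and -0.31). On day 6 neither passed at 25% or 12.5%.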

How the data were processed

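Total RNA of Jurkat cells was sequenced in 25 strand-specific libraries, per the labels' protocols. The deposited signal values are normalized counts per gene, not whole reads; kallisto 0.50.1, DESeq2 1.44.0, FastQC 0.11.9 and the build GRCh38 are named in the submitters' processing notes, while neither the annotation nor the strand setting of the counting is stated there. Whole reads could not be recovered, since 54.3% to 74.3% of low values came out whole within 0.05 read, so count models were not used and the depth is unknown; the number of libraries limits the precision.

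Values were tested as log2(value + 1) with limma 3.58.1 (trend and robust moderation, statmod 1.5.0, R 4.3.3) over all 25 libraries in 9 groups. Genes needed a value of 10 in 2 libraries, 22994 genes were tested, and p-values were Benjamini-Hochberg adjusted over all of them with a threshold of 0.05. The mitochondrial mRNAs were refitted as shares of their sum, a measure added after the data had been seen. limma was checked on simulated data. The members and gene lists were chosen with earlier results of these data known. All 13 mitochondrial members were named, and of nuclear members the up to 6 largest called rises and falls per main comparison with a mean of at least 50 in 1 group, 3 in the others; of the further pathway lists, up to 3 called genes with the smallest p. Positions are from GENCODE 29 and promoters from RefSeq (GRCh38.p14), and 13 nuclear members had no promoter entry. Alternatives changed the pseudocount, filter, scaling, moderation, libraries in the fit, replicate block and the library number modulo 8. Same-numbered replicates did not deviate together (median correlation 0.00128, 1 of 92 pairs over 0.1), so the fit has no block. No 2 libraries held identical values (0 pairs). Figures were drawn with matplotlib 3.10.9.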

Additional observations from a re-analysis of the deposited data

Results flagged for a closer look

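For 5 effects on nuclear members and 1 on a mitochondrial share, limma's test of the difference between days passed (Benjamini-Hochberg adjusted p under 0.05). The nuclear effects are 2 of 78 members at 25% (2.56%) and 3 of 78 at 12.5% (3.85%), where 4.72% and 3.64% of all genes passed. The effect of 25% against 100% histidine on day 6 minus that on day 3 was -0.64 on the log2 scale for NDUFB9 (adjusted p = 0.00267) and 0.67 for UQCRC2 (adjusted p = 0.0258). At 12.5% it was -0.49 for ATP5PO (adjusted p = 0.0418), -0.65 for NDUFA11 (adjusted p = 0.034) and -0.68 for NDUFB9 (adjusted p = 0.00398). For the share of MT-ND5 in the mitochondrial mRNAs it was 0.33 at 12.5% (adjusted p = 0.0153). Both days were set against their own 100% libraries, and 2 of those on day 3 enter all 6 values.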

How the results depend on the processing

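Single members were followed through the alternatives only where the naming rule picked them for a comparison, together with the mitochondrial mRNAs and their shares. Other called nuclear members were not checked in this way. Among the values followed, none that passed the threshold changed sign under an alternative that was run, and some that had not passed did. In all, 5494 values under an alternative were compared, including the group means of the mitochondrial percent of members. Of these, 5183 stayed the same, among them values that passed on neither side, while 266 lost and 43 gained the call. The 2 that moved were such group means, which changed by at least their SD without the overlapping mitochondrial genes. At 50% histidine the count of members called was 0 in every alternative on both days.

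Leaving out single libraries gave 15 to 19 members called at 25% on day 3, 14 to 26 at 12.5%, 10 to 22 at 0%, 5 to 9 for 0% against 12.5%, 10 to 16 at 25% on day 6 and 8 to 13 at 12.5%. For day 6 against day 3 it gave 2 to 19 at 100%, 11 to 29 at 25% and 23 to 42 at 12.5%, and for the difference between days 1 to 5 at 25% and 0 to 7 at 12.5%. Shares called ranged from 4 to 7 at 25% on day 3, 5 to 9 at 12.5%, 6 to 7 at 0%, 4 to 6 for 0% against 12.5%, 4 to 6 at 25% on day 6, 3 to 7 at 12.5%, and 1 to 2 for day 6 against day 3 at 100%. Where 1 library was left in a group, it was assumed to vary like the others.

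With the replicate block, 20, 31 and 25 members were called at 25%, 12.5% and 0% on day 3, 9 for 0% against 12.5%, 14 and 13 at 25% and 12.5% on day 6, 15, 24 and 44 for day 6 against day 3, and 3 for each difference between days. In the same order, 4382, 5834, 7002, 4759, 4594, 4837, 1861, 2613 and 3027 of all 22994 genes were called. The differences between days had 1092 genes at 25% and 770 at 12.5%. The replicate numbers do not pair the libraries, 7 of 25 of which correlated best with their own number.

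With the library number modulo 8 as a term, the counts were 12 at 25% and 9 at 0% on day 3, and 5 for 0% against 12.5%. They were 9 at 25% on day 6, 3 and 17 for day 6 against day 3 at 100% and 12.5%, and 1 for each difference between days. Of 22994 genes, that fit called 2350 at 25% and 4725 at 0% on day 3, and 2723 for 0% against 12.5%. It called 3012 genes at 25% on day 6, and 720 and 1214 for day 6 against day 3 at 100% and 12.5%. For the differences between days it called 407 genes at 25% and 549 at 12.5%. Shares called were 3 at 25% on either day and 0 for day 6 against day 3 at 100%. Only the compared groups in the fit gave 17 for 0% against 12.5%, 6 at 25% on day 6, 8 for day 6 against day 3 at 25%, and 1 and 5 for the differences between days at 25% and 12.5%. A minimum of 50 gave 14 for 0% against 12.5% and 5 for the difference at 12.5%, and no minimum gave 1 for that at 25%. Equal totals gave 10 for day 6 against day 3 at 100% and 6 for the difference at 25%, quantile normalization gave 29 (12.5%) and 5, and totals without mitochondrial genes gave 29 and 6. Of all 22994 genes, equal totals called 1977 and 1266, quantile normalization 2624 and 1164, and totals without mitochondrial genes 2899 and 1239. Without trend and robust moderation 1 member was called in each difference between days, and 3, 2 and 1 shares for 0% against 12.5%, 25% on day 6 and day 6 against day 3 at 100%. Without the overlapping mitochondrial genes, where fewer shares were tested, 2 and 5 were called at 25% and 12.5% on day 3 and 1 at 25% on day 6. The cause of the other changes was not tested.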
